A study of Mus musculus with 8 samples.

Results

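The 8 genes followed here belong to the red cell lineage and were read in hematopoietic stem cells of the mouse: the transcription regulators Gata1, Klf1 and Zfpm1, the receptors Epor and Tfrc, and the membrane proteins Slc4a1, Rhag and Ank1. They were chosen by name, with earlier results of these data known, and all 8 were found among the 52224 genes of the deposited table. The table holds 4 libraries labelled DekTg and 4 labelled DekCon, names that the labels give as genotypes, and no treatment other than the genotype is listed. All 8 libraries came from bone marrow cells sorted as CD48-negative and CD150-positive within the LSK fraction (lineage-negative, Sca-1-positive, Kit-positive). The strain, age and sex of the mice, the promoter and cell types of the transgene, the number of cells sorted and any pooling of animals are not stated by the sources used here. Nor do the labels say that the libraries came from separate mice, so the p-values rest on a spread between libraries that could be technical alone.

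Red cell formation runs from stem cells through progenitors shared with megakaryocytes to erythroblasts. Gata1 is a zinc finger factor needed in both lineages, and Zfpm1 (also called FOG1) is the cofactor that binds it. Klf1 is the Krüppel-like factor that activates beta-globin and many membrane genes of the red cell. Epor is the receptor for erythropoietin, and Tfrc is the transferrin receptor that brings iron into the cell. Slc4a1 (band 3) is the anion exchanger of the red cell membrane, Rhag is the glycoprotein that carries the Rh complex, and Ank1 (ankyrin-1) ties band 3 to the spectrin skeleton.

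The promoters of the 3 genes with a GATA match and that of Gata1 itself are printed because GATA1 is the regulator whose level is described first below. Each run is 300 bases on GRCm38.p6, from 250 bases before to 50 bases after the start of the RefSeq transcript, written 5′ to 3′ on the strand of the gene. Capitals mark matches, on either strand, to the GATA factor motif, meaning GATA with an A or a T before it and an A or a G after it.
Klf1, chr8:84901732-84902031, plus strand: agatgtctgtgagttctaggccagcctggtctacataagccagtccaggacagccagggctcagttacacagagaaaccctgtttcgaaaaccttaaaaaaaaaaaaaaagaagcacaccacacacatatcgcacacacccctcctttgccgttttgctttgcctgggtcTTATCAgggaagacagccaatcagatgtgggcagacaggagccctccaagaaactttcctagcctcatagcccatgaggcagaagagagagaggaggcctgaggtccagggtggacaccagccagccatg
Epor, chr9:21963527-21963826, minus strand: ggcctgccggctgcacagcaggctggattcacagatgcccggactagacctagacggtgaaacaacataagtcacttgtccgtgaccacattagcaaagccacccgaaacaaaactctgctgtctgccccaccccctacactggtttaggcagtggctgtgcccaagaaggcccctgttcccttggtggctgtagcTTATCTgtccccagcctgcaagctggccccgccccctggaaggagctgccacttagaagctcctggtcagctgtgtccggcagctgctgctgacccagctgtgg
Rhag, chr17:40810899-40811198, plus strand: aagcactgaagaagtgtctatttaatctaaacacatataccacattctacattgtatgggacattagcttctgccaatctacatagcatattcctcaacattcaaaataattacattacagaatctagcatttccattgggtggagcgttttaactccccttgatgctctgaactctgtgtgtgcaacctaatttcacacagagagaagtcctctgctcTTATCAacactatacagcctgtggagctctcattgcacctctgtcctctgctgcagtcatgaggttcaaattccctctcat
Gata1, chrX:7967861-7968160, minus strand: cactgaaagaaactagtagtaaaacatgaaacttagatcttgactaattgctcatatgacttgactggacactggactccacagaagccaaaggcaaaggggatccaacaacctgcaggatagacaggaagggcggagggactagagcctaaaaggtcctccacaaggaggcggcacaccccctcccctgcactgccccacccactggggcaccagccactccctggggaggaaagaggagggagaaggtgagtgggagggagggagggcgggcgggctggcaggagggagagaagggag
The windows of Klf1, Epor and Rhag each hold 1 GATA match, at -80, -54 and -31 relative to the start (first base), and the window of Gata1 holds none. Of 32851 RefSeq promoter windows of the same length, 29.8% hold such a match. Sequences matched 6 of the 8 genes. The window of Zfpm1 and both windows of Tfrc hold no GATA match. A Krüppel-like factor motif, CCACACCC or CCGCACCC on either strand, occurs in 5.31% of all windows and in 1 of the windows of these genes, the upstream one of Tfrc. The GATA and Krüppel-like matches of these genes do not overlap. A match is a description of letters and not a binding site.

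Values are normalized read counts, meaning reads per gene divided by a size factor for each library and not by gene length. The libraries held 2642858 to 3591212 recovered reads in DekTg and 2525884 to 4101132 in DekCon. Replicates 1 and 4 of a group were much closer to each other than any other pair of that group: the chi-square per degree of freedom of their reads was 1.67 in DekTg and 1.58 in DekCon, against 3.62 to 7.83 for the other pairs. They differed by more than counting noise, but reads without molecular identifiers are not independent molecules, so this does not make them separate samples. They were kept as separate, with their averages run as an alternative. DekCon replicate 2 stood apart. In it the summed megakaryocyte markers came to 13827, against 5310 to 7533 in the other DekCon libraries, and its summed stem cell and sort markers came to 3061, against 3762 to 6140. Much of that low sum lay in Cd34, at 624 against 1109 to 2265, and Flt3, at 161 against 385 to 847. Both are also progenitor genes, so the sum is not a measure of stem cell markers alone. Kit, at 1346, lay inside the range of the other DekCon libraries. DekTg replicate 3 stood apart in its granulocyte markers, which summed to 17115, against 2199 to 4821 in the other DekTg libraries, and all 10 of them were highest of the group there. Without it Gata1 was at a log2 fold change of -0.75, Klf1 at -0.77, Zfpm1 at -0.84, Epor at -0.94, Tfrc at 0.07, Slc4a1 at 1.05, Rhag at 0.36 and Ank1 at -0.54, and 0 of the 8 passed. The sort markers Kit, Ly6a (Sca-1) and Slamf1 (CD150) were read in all 8 libraries, with at least 1072, 110.0 and 190.0 normalized reads. Cd48, whose protein the sort selected against, was read in all 8 too, at 174 to 230.0 in DekTg and 128 to 259 in DekCon. Dek, the check of the labels, was listed at 2392 ± 403 in DekTg and 511 ± 100 in DekCon (SD, n = 4 each), but its 4 DekTg values are not whole numbers of reads, so the size of that difference cannot be taken as measured.

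None of the 8 erythroid genes passed the test between DekTg and DekCon (0 of 8 by limma with Benjamini-Hochberg adjustment over 37414 genes, threshold 0.05; smallest adjusted p = 0.711). Over all genes tested, 0.0347% passed. EdgeR passed 0 of 8 as well, against 0.0241% of all genes. DESeq2 passed 0 of the 1 gene that kept an adjusted p, against 0.422% of all genes that kept one, and 0 of 8 without its independent filtering, against 0.0374%. At an unadjusted p under 0.05 there were 4 of the 8, against 6.93% of all genes tested. Of these, 3 were lower in DekTg (Gata1, Zfpm1 and Epor), against 3.78% of all genes, and 1 was higher (Slc4a1), against 3.15%. Without DekCon replicate 2, 2 of 8 were left (Gata1 and Slc4a1), against 5.18% of all genes. Groups did not overlap for 1 of 8, Gata1, which was lower in DekTg, against 3.97% of all genes in either direction (1.88% lower and 2.09% higher). The median log2 fold change of the 8 was -0.67, and -0.39 without DekCon replicate 2, against 0.0057 and -0.0073 over all genes tested.

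**Figure D1:**
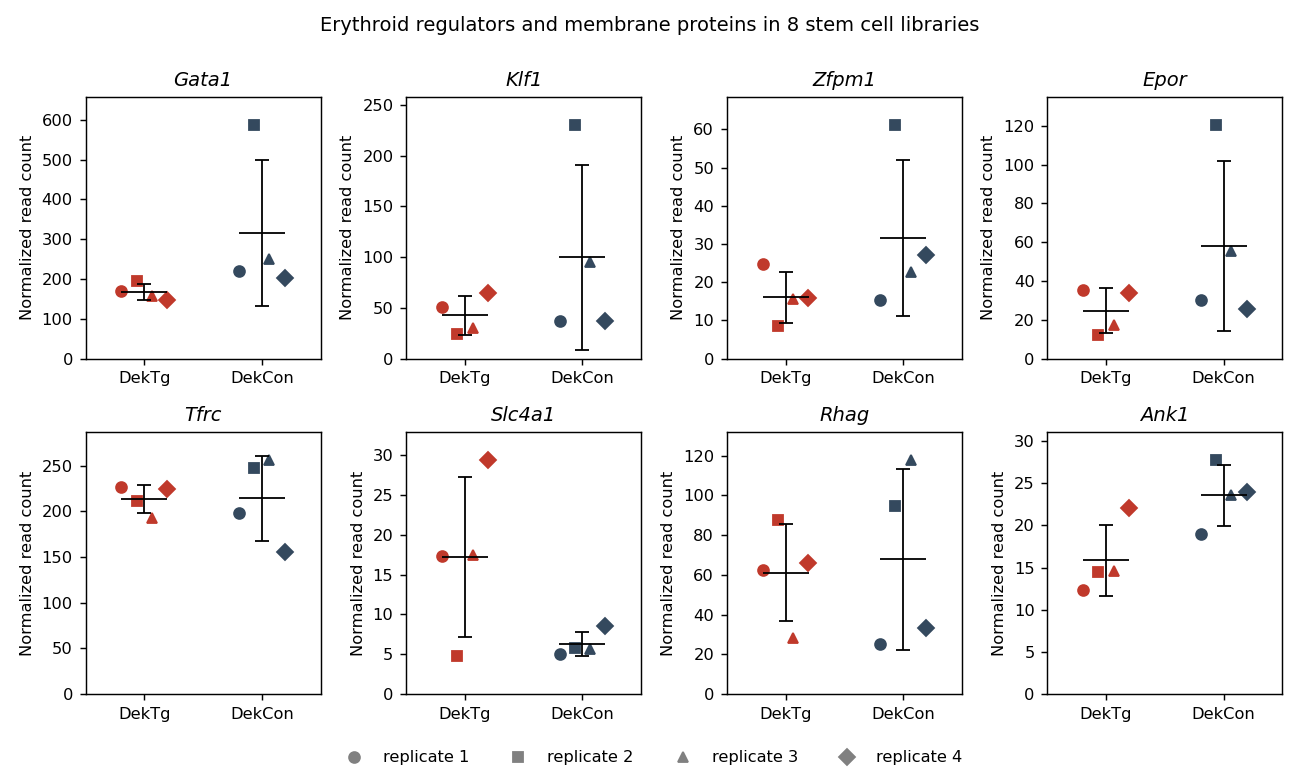
Normalized read counts (y axis, linear, from 0, a scale per panel) of the 8 erythroid genes in DekTg and DekCon libraries; each point is a library, its shape gives the replicate number, and the bar and whiskers are the mean and SD of 4 libraries. DekCon replicate 2 is the highest point for Gata1, Klf1, Zfpm1, Epor and Ank1, and Gata1 is the only panel in which the groups do not overlap.

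Gata1 had 169.8, 195, 157 and 146 normalized reads in DekTg replicates 1 to 4, against 221, 588, 249.7 and 203 in DekCon replicates 1 to 4. All 4 DekTg libraries lay below all 4 DekCon libraries, and DekCon replicate 2 was far above the other 3. For Gata1 the log2 fold change came to -0.78 (SE 0.25, 95% interval -1.30 to -0.25, limma adjusted p = 0.711). Without DekCon replicate 2 it was -0.43 (SE 0.14, adjusted p = 0.931), with DekTg still at 167 ± 21 (SD, n = 4) and the other DekCon libraries at 224 ± 24 (SD, n = 3). Between 139 and 614 recovered reads stood behind each value. In bulk samples, fewer cells with the transcript and less of it in each cell cannot be told apart.

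Klf1 had 51.1, 24.0, 30.1 and 65.1 normalized reads in DekTg replicates 1 to 4, against 36.8, 231, 95.2 and 37.0 in DekCon replicates 1 to 4. The groups overlapped: DekTg replicates 1 and 4 lay above DekCon replicates 1 and 4, and DekCon replicates 2 and 3 lay above every DekTg library. Within DekCon the highest value was 6.27 times the lowest, and within DekTg 2.71 times. In the fit across all genes Klf1 was at a log2 fold change of -0.89 (SE 0.45, 95% interval -1.85 to 0.06, limma adjusted p = 0.727) and -0.35 without DekCon replicate 2 (adjusted p = 0.948), so that library alone moved it by more than its size without it.

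Zfpm1, the cofactor of Gata1, had 24.7, 8.41, 15.5 and 15.7 normalized reads in DekTg replicates 1 to 4, against 15.2, 61.2, 22.6 and 27.0 in DekCon replicates 1 to 4. The groups overlapped, with the highest value again in DekCon replicate 2 and the lowest, 7 recovered reads, in DekTg replicate 2. Its log2 fold change came to -0.83 (SE 0.38, 95% interval -1.64 to -0.02, limma adjusted p = 0.711), and -0.45 without DekCon replicate 2 (adjusted p = 0.934). In GENCODE M21 the whole span of Zfpm1 (chromosome 8, 122282141 to 122337251, plus strand) is shared with Gm20388, a protein-coding gene on the same strand. Gm20388 is not among the genes of the deposited table. The annotation counted is not stated, so the count of Zfpm1 is uncertain only if the counting met both. The spans of Gata1, Klf1, Epor, Tfrc, Slc4a1 and Rhag overlap no other GENCODE gene.

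Epor had 35.4, 12.0, 17.5 and 33.6 normalized reads in DekTg replicates 1 to 4, against 30.4, 121, 55.6 and 25.5 in DekCon replicates 1 to 4. It shared the order of Klf1 in part: DekCon replicates 2 and 3 were the highest 2 of the 8 libraries for each gene, and DekTg replicates 2 and 3 the lowest 2. For Epor the log2 fold change came to -1.06 (SE 0.42, 95% interval -1.94 to -0.18, limma adjusted p = 0.711), and -0.62 without DekCon replicate 2 (adjusted p = 0.931). Leaving out 1 library at a time gave -1.36 to -0.62.

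Tfrc varied little between libraries, its highest value being 1.17 times the lowest within DekTg and 1.64 times within DekCon. It had 227, 211, 193 and 225 normalized reads in DekTg replicates 1 to 4, against 198, 248, 256 and 156 in DekCon replicates 1 to 4. The DekTg values all lay inside the DekCon range. The means were 214 ± 15 in DekTg and 214 ± 47 in DekCon (SD, n = 4 each), and limma put the log2 fold change at 0.02 (SE 0.16, adjusted p = 0.986), with a 95% interval from -0.31 to 0.35. Its sign turned when libraries were left out, and no direction is read from it.

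Slc4a1 was the 1 gene of the 8 listed higher in DekTg with an interval that did not reach 0. It had 17.3, 4.80, 17.5 and 29.4 normalized reads in DekTg replicates 1 to 4, against 5.07, 5.74, 5.65 and 8.49 in DekCon replicates 1 to 4. DekTg replicates 1, 3 and 4 lay above every DekCon library, and DekTg replicate 2 lay at the low end. DekTg replicate 2 and DekCon replicate 1 each held 4 recovered reads, so the order of these 2 rests on their size factors. The counts were small, 71 recovered reads over the 4 DekTg libraries and 27 over the 4 DekCon libraries. DekTg over DekCon gave a log2 fold change of 1.13 (SE 0.45, 95% interval 0.19 to 2.08, limma adjusted p = 0.711), and 1.11 without DekCon replicate 2. Without DekTg replicate 2 it was 1.61 (adjusted p = 0.241).

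Rhag followed another pattern. It had 62.6, 87.7, 28.1 and 66.1 normalized reads in DekTg replicates 1 to 4, against 25.4, 94.7, 118 and 33.2 in DekCon replicates 1 to 4. The DekCon libraries fell into a high pair, replicates 2 and 3, and a low pair, replicates 1 and 4, and 3 of the 4 DekTg libraries lay between them. Rhag was at a log2 fold change of 0.03 (SE 0.41, 95% interval -0.85 to 0.90, limma adjusted p = 0.993), an interval wide enough to hold a change of nearly 1 log2 unit either way. Leaving out 1 library at a time gave -0.34 to 0.38. Rhd, the partner of Rhag in the Rh complex, showed the same high and low DekCon pairs. Rhd had 37.9, 36.0, 24.3 and 44.1 normalized reads in DekTg replicates 1 to 4, against 5.07, 58.4, 82.9 and 9.26 in DekCon replicates 1 to 4. So did Ermap, an erythroid membrane protein, with 50.5 to 100.9 in DekTg, against 193 and 155 in DekCon replicates 2 and 3 and 24.1 and 26.2 in DekCon replicates 1 and 4. Car1, the carbonic anhydrase of early erythroid cells, had 139 to 345 in DekTg, against 1160 and 946 in DekCon replicates 2 and 3 and 54.5 and 61.7 in DekCon replicates 1 and 4. Rhd, Ermap and Car1 were picked out after their values were seen.

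Ank1 had 12.4, 14.4, 14.6 and 22.0 normalized reads in DekTg replicates 1 to 4, against 19.0, 27.8, 23.6 and 23.9 in DekCon replicates 1 to 4. DekTg replicates 1, 2 and 3 lay below every DekCon library, and DekTg replicate 4 lay inside the DekCon range. Means were 15.8 ± 4.3 in DekTg and 23.6 ± 3.6 in DekCon (SD, n = 4 each). Ank1 was at a log2 fold change of -0.56 (SE 0.27, 95% interval -1.13 to 0.01, limma adjusted p = 0.717), and -0.48 without DekCon replicate 2. The microRNA gene Mir486 lies within the span of Ank1 and is listed at 0 in all 8 libraries.

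**Figure D2:**
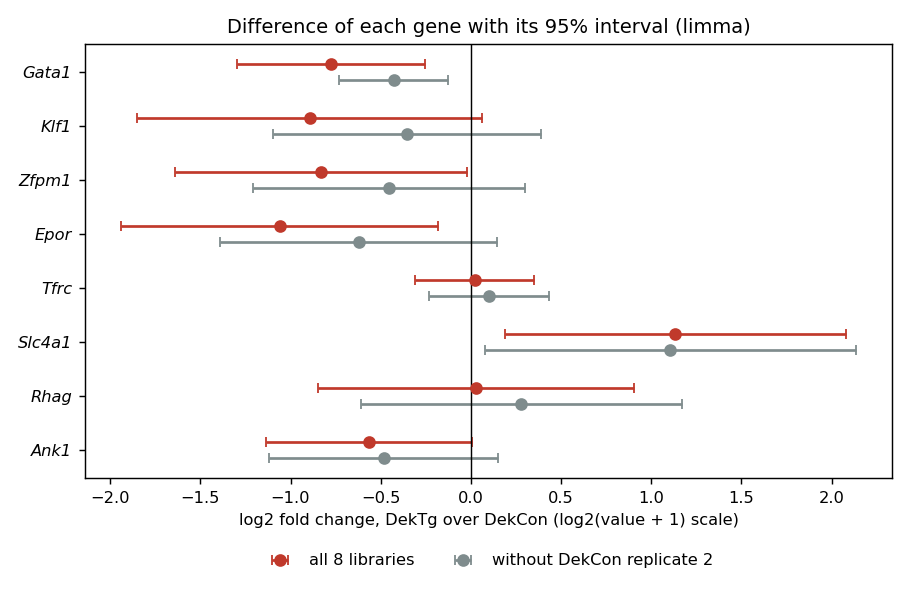
Log2 fold change of DekTg over DekCon (x axis, on the log2(value + 1) scale) of the 8 erythroid genes; points are limma estimates and bars their unadjusted 95% intervals, from all 8 libraries and without DekCon replicate 2. Leaving that library out moves Gata1, Klf1, Zfpm1 and Epor toward 0, to between -0.62 and -0.35, and leaves Slc4a1 at 1.11.

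The values of DekCon replicate 2 were compared with the median of the other 3 DekCon libraries. It held 2.66 times as much Gata1, 6.23 times as much Klf1, 2.71 times as much Zfpm1 and 3.96 times as much Epor. Rhag was at 2.85 times, below its 3.55 times in DekCon replicate 3. Tfrc was at 1.25 times, Ank1 at 1.18 times and Slc4a1 at 1.02 times. Gata2, the factor that precedes Gata1 in erythroid progenitors, was at 2.17 times. Of the 13 megakaryocyte markers, 11 were highest of the 4 DekCon libraries in that library, and Gp6 and Nfe2 were not. Itga2b, the integrin CD41, was at 3.11 times, Pf4 (platelet factor 4) at 3.68 times and Vwf (von Willebrand factor) at 3.24 times. Of the 11 stem cell and sort markers, 7 were lowest of the 4 DekCon libraries there and 1, Hoxb5, was highest. The 7 include Cd48, whose protein the sort selected against, and Cd34 and Flt3, which are also progenitor genes. Hlf was at 0.44 times, Procr at 0.24 times, Cd34 at 0.28 times and Flt3 at 0.19 times, while Kit, Slamf1 and Fgd5 lay inside the range of the other DekCon libraries. The part of these markers in the fold changes of Gata1, Klf1, Zfpm1 and Epor was not tested.

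**Figure D3:**
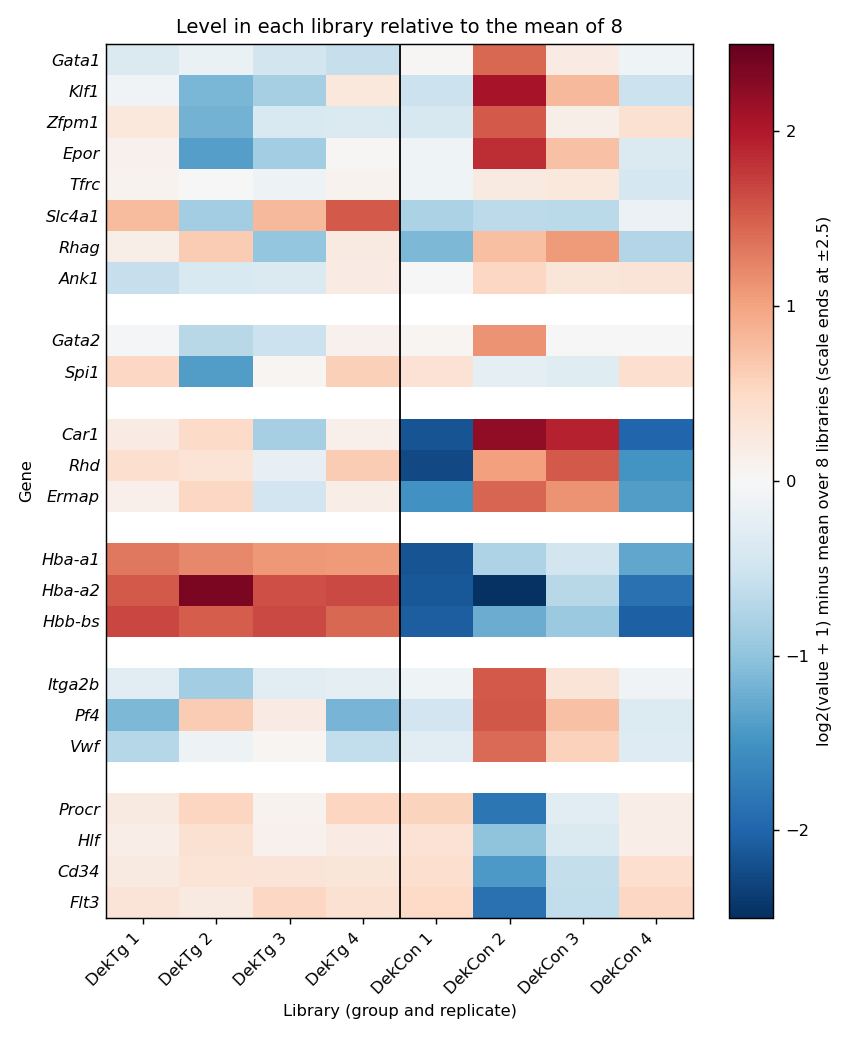
Level of each gene in each library as log2(value + 1) minus its mean over the 8 libraries (color, red above and blue below the mean), with DekTg libraries left of the line and DekCon libraries right of it; blocks from the top are the 8 erythroid genes, Gata2 and Spi1, early erythroid genes, globins, megakaryocyte genes and stem cell genes. DekCon replicate 2 is red for Gata1, Klf1, Epor and the 3 megakaryocyte genes drawn and blue for the 4 stem and progenitor genes drawn. These 4 come from a list of 11, of which 7 were lowest of the DekCon libraries there and Hoxb5, not drawn, was highest. The globins separate all DekTg from all DekCon libraries.

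Lists of markers of other cell types, chosen with earlier results of these data known, were read beside these results. No marker of any list was at 0 in any library. All 13 megakaryocyte markers had a log2 fold change below 0, as had 49.4% of all genes tested, with a median of -0.70 and 0 of 13 past the threshold by limma (0.0347% of all genes). At an unadjusted p under 0.05 there were 9, all lower in DekTg, against 3.78% of all genes in that direction. Without DekCon replicate 2 the median was -0.34 and there were 6, against 5.18% of all genes in either direction. Their summed value was 3906 to 5570 in DekTg and 5310 to 13827 in DekCon. Mast cell, basophil and eosinophil markers, whose cells also use Gata1, summed to 1737 to 2473 in DekTg and 1662 to 5578 in DekCon, with a median log2 fold change of -0.06. Macrophage markers summed to 731 to 897 in DekTg and 417 to 1103 in DekCon. Granulocyte markers summed to 2199 to 17115 in DekTg, the highest in replicate 3, and 4050 to 10249 in DekCon. B lymphoid and plasma cell markers summed to 1872 to 2935 in DekTg and 603 to 859.5 in DekCon. Of these 10, 2 passed by limma, Igkc and Jchain, both higher in DekTg, against 0.0347% of all genes in either direction. Stem cell and sort markers summed to 5220 to 5803 in DekTg and 3061 to 6140 in DekCon. Their part in the erythroid values was not tested.

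The erythroblast and red cell list had 14 of its 15 genes in the table. Of the 14, 8 had a log2 fold change above 0 and 6 below 0 (49.4% of all genes below 0). By limma 3 passed, all higher in DekTg, the globins Hba-a1, Hba-a2 and Hbb-bs, against 0.0347% of all genes in either direction. At an unadjusted p under 0.05 there were 5, all higher, against 3.15% of all genes in that direction. A further globin, Hbb-bt, was at 1.66 (limma adjusted p = 0.639), and its groups did not overlap. Globin genes are near-identical copies, and how the counting split reads between them is uncertain. The list summed to 3119 to 4760 in DekTg and 2807 to 5237 in DekCon, sums in which Car2 alone made 1662 to 2854 and 1806 to 2578. Hbb-bs, an adult beta-globin, had 114, 102, 113 and 96.6 normalized reads in DekTg replicates 1 to 4, against 7.61, 14.4, 17.9 and 7.72 in DekCon replicates 1 to 4 (limma adjusted p = 9.53e-06). DekTg replicate 2 was as high in Hbb-bs as the other DekTg libraries, although its Slc4a1 was at 4 recovered reads, as was that of DekCon replicate 1. Alas2, the erythroid enzyme that starts heme synthesis, had 13.2, 10.8, 8.73 and 10.5 in DekTg replicates 1 to 4, against 7.61, 3.83, 14.1 and 4.63 in DekCon replicates 1 to 4 (log2 fold change 0.60, adjusted p = 0.787). The groups overlapped for Alas2.

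Per kb of exon, Gata1 stood highest of the 8 in each group. It averaged 68.4 ± 8.6 normalized reads per kb in DekTg and 129 ± 75 in DekCon (SD, n = 4 each). In DekTg the order after it was Tfrc at 34.6 ± 2.5, Klf1 at 27.8 ± 12.4, Rhag at 26.1 ± 10.5, Epor at 12.4 ± 5.9, Zfpm1 at 4.6 ± 1.9, Slc4a1 at 3.53 ± 2.05 and Ank1 at 1.17 ± 0.31 per kb. Only the step between Gata1 and Tfrc had ranges that did not overlap among these DekTg neighbours. In DekCon the order after Gata1 was Klf1 at 65.3 ± 59.7, Tfrc at 34.7 ± 7.6, Epor at 29.2 ± 22.0, Rhag at 29.0 ± 19.5, Zfpm1 at 9.0 ± 5.8, Ank1 at 1.74 ± 0.26 and Slc4a1 at 1.28 ± 0.31 per kb. There only the step between Zfpm1 and Ank1 had ranges that did not overlap. Exon lengths ran from 1.53 kb for Klf1 to 13.5 kb for Ank1, which has 17 annotated transcripts, and with the longest transcript as the length the order was the same in each group.

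**Figure D4:**
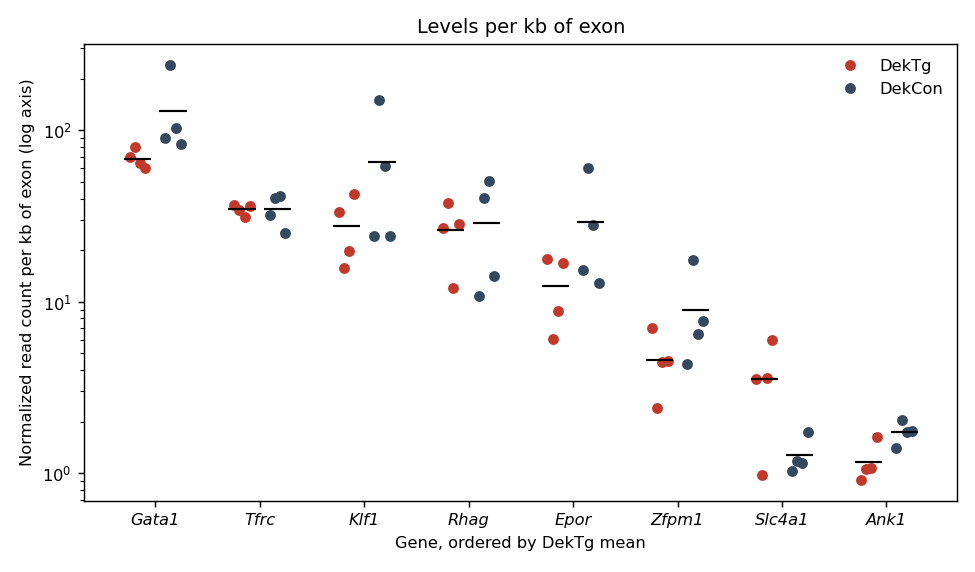
Normalized read count per kb of exon (y axis, log scale) of the 8 erythroid genes in order of their DekTg mean; points are libraries, DekTg left of DekCon for each gene, and lines are group means. Gata1 averages 68.4 in DekTg and 129 in DekCon, while Slc4a1 and Ank1 lie below 7 in every library.

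The wider erythroid pathway was read from 4 lists of 87 genes, all tested by limma and chosen with earlier results of these data known. By limma 0 of 87 passed in either direction, against 0.0347% of all genes, and 0 by edgeR, against 0.0241%. With shares this small, 0 of 87 says little of the pathway. At an unadjusted p under 0.05 there were 16, all lower in DekTg, against 3.78% of all genes in that direction, and 8 in either direction without DekCon replicate 2, against 5.18% of all genes. Groups did not overlap for 9, all lower in DekTg, against 1.88% of all genes in that direction. The median log2 fold change of the 87 was -0.16, and -0.15 without DekCon replicate 2, against 0.0057 and -0.0073 over all genes tested. Shares and medians over all genes are not matched to the lists for expression level. Over genes with a value of at least 10 in at least 4 libraries the median was -0.023. The part of expression level in these counts was not tested.

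Of 24 transcription partners, 21 had a fold change below 0, against 49.4% of all genes tested, and the median was -0.18. Fli1, an ETS factor of megakaryocytes that opposes Klf1, averaged 585 ± 42 in DekTg and 833 ± 145 in DekCon (SD, n = 4 each; log2 fold change -0.50, limma adjusted p = 0.653), and its groups did not overlap. Cbfa2t3 (ETO2), a corepressor in the complex of Gata1 and Tal1, averaged 308 ± 46 in DekTg and 402 ± 34 in DekCon (-0.39, adjusted p = 0.711). Gfi1b, a repressor needed in both lineages, averaged 199 ± 36 in DekTg and 314 ± 123 in DekCon (-0.60, adjusted p = 0.711), and was at -0.36 without DekCon replicate 2. Tal1 and Lmo2, named after their values were seen as further parts of that complex, had log2 fold changes of -0.48 and -0.40.

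Of 20 genes of erythropoietin receptor signalling, 14 had a fold change below 0 (49.4% of all genes) and the median was -0.12. Bcl2l1, the survival gene that encodes Bcl-xL, averaged 394 ± 82 in DekTg and 657 ± 276 in DekCon (SD, n = 4 each; log2 fold change -0.68, limma adjusted p = 0.707), and was at -0.42 without DekCon replicate 2. Tfr2, a transferrin receptor that also binds Epor, averaged 313 ± 62 in DekTg and 419 ± 63 in DekCon (-0.43, adjusted p = 0.711). The adaptor Grb2 averaged 261 ± 18 in DekTg and 313 ± 24 in DekCon (-0.26, adjusted p = 0.711). Groups did not overlap for Grb2, nor for Stat5a, a transcription factor that the receptor activates, which was named after its values were seen. Bcl2l1 is also among the 9 genes without overlap, but its highest DekTg value, 488.2, and its lowest DekCon value, 488.5, lie less than 1 read apart.

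Of 15 iron genes, 9 had a fold change below 0 (49.4% of all genes) and the median was -0.09. The endosomal iron transporter Slc11a2 averaged 72.2 ± 11.6 in DekTg and 103 ± 28 in DekCon (SD, n = 4 each; log2 fold change -0.48, limma adjusted p = 0.711), and was at -0.31 without DekCon replicate 2. The ferritin light chain Ftl1 had -0.23 and the iron chaperone Pcbp1 had -0.35 (-0.17 without DekCon replicate 2).

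Of 28 genes of the red cell membrane and skeleton, 20 had a fold change below 0 (49.4% of all genes) and the median was -0.19. Icam4, an adhesion molecule of erythroblasts, averaged 40.4 ± 5.4 in DekTg and 76.9 ± 32.9 in DekCon (SD, n = 4 each; log2 fold change -0.84, limma adjusted p = 0.654), and its groups did not overlap. Kel, the Kell blood group protease, had -1.10 (adjusted p = 0.711), with 7.91 ± 2.44 in DekTg and 20.9 ± 13.7 in DekCon. The water channel Aqp1 averaged 154 ± 21 in DekTg and 346 ± 274 in DekCon (-0.85, adjusted p = 0.711), and was at -0.38 without DekCon replicate 2, which held 732 normalized reads.

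The gene most alike to each of the 8 was looked for over the 8 libraries, by Pearson's r of log2(value + 1) among 13591 genes with a mean of at least 20. This is a description of 8 points that share a group and, for replicates 1 and 4, much of their profile, and the best of so many genes is high by the search itself. Gpsm2 was most alike to Gata1 (r = 0.99), Ifrd2 to Klf1 (0.99), Cc2d2a to Zfpm1 (0.99), Safb to Epor (0.99), Ercc6l2 to Tfrc (0.95), Ifi209 to Slc4a1 (0.96), Slc38a5 to Rhag (0.95) and Pira1 to Ank1 (0.97). Among the 8 themselves, Klf1 and Epor were the closest pair (r = 0.97, and 0.93 without DekCon replicate 2). Gata1 was closest to Klf1 (0.78), but only 0.20 without DekCon replicate 2. Slc4a1 was unlike all 7 others, its closest being Tfrc at -0.05.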

How the data were processed

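Per the labels' protocols, libraries were made by tagmentation from total RNA (miRNeasy kit) after Geo-seq amplification, which suits small samples. The submitters' processing notes name build mm10 and the tools DESeq2, HTSeq, Cufflinks 2.1.1 and Bowtie 0.12.9. The sources used here do not state what each tool did, which annotation was counted or whether strand was used.

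The authors deposited 1 signal value for each gene and library, in a table whose name says FPKM. Within a library 99.99% of values are whole multiples of 1 step (tolerance 0.001 reads), so they were read as counts the authors divided by a size factor. All values of the 8 genes are whole, and 25 values of 6 other genes are not. Reads without molecular identifiers are not independent molecules, so read numbers cover counting error only.

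Genes with a value of at least 1 in at least 4 libraries were tested with limma 3.58.1 (R 4.3.3, trend, no covariates, two-sided, Benjamini-Hochberg over 37414 genes) on log2(value + 1), a scale that understates changes of low genes. EdgeR 4.0.16 and DESeq2 1.42.0 were run on recovered reads without the 6 genes; edgeR called 9 genes and DESeq2 14. On simulated reads for DekTg against DekCon (37071 genes, changed genes drawn from well-read ones), limma recovered 100% of 4-fold and 90% of 2-fold changes, with 9 false calls. Zfpm1, Epor, Slc4a1 and Ank1 were read less, on average, than those changed genes, and no simulated library was made to stand apart. The recovered shares therefore do not say how often such changes would be missed in the erythroid genes. Members and lists were chosen with earlier results of these data known. Named pathway genes are those past the threshold or, where none passed, the 3 of smallest p per list. Positions and exon lengths are from GENCODE M21 on GRCm38. The promoters are from RefSeq on GRCm38.p6.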

Additional observations from a re-analysis of the deposited data

Results flagged for a closer look

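Gata1 in DekCon replicate 2, at 588 normalized reads, lay far from the other DekCon libraries: the gap to the nearest of them was 0.879 of the whole range of the group, past Dixon's 95% critical value for 4 samples. The 8 genes in 2 groups gave 16 such checks, and chance passes about 1 in 20.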

How the results depend on the processing

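In all 24 alternatives run, 0 of the 8 erythroid genes and 0 of the 87 other erythroid genes passed. A gene without an adjusted p in an alternative counts here as not passing. Slc11a2, Icam4 and Kel of the 87, for example, had none by DESeq2 with independent filtering. The smallest adjusted p of any of the 8 was 0.0913, for Gata1 by DESeq2, whose independent filtering left the other 7 with none. Slc4a1, and among the 87 for example Bcam and Erfe, were not tested with the filter at 10 in 4 libraries. Gata1, Klf1, Zfpm1, Epor and Ank1 stayed below 0 and Slc4a1 above 0 in each alternative that gave a value. Tfrc turned to -0.095 with replicates 1 and 4 averaged and -0.0013 by DESeq2 without independent filtering, and ranged from -0.12 to 0.12 on leaving out 1 library. Rhag turned to -0.34 with replicates 1 and 4 averaged, -0.16 by edgeR and -0.15 by DESeq2 without independent filtering, and ranged from -0.34 to 0.38 on leaving out 1 library. Of all genes, 13 passed, 4 without the trend, 8 once the 6 genes with values that are not whole reads were dropped, and 13 to 22 on leaving out 1 library (22 without DekTg replicate 2). The cause of these moves was not tested. With the replicate number as a block 15 genes passed, 0 of them among the 8 or the 87. Deviations of same-numbered libraries correlated at 0.03, 0.03, 0.02 and 0.11 across genes. DekTg replicate 1 correlated best with DekCon replicate 4, so the numbers were not taken to pair samples. Differently numbered libraries correlated at -0.165 (DekTg replicate 4 with DekCon replicate 3) to 0.143 (DekTg replicate 2 with DekCon replicate 3). Replicates 1 and 4 of DekTg correlated with replicates 1 and 4 of DekCon at 0.03 to 0.11. Whether the groups share a split of replicates 1 and 4 from 2 and 3 was not tested. No scaling moved the median of all genes by more than 0.0782 on the log2 scale. Single genes moved further with quantile scaling: Fli1 went from -0.50 to -0.34, Ftl1 from -0.23 to -0.06 and Kel from -1.10 to -1.19. Low counts limit Slc4a1, Ank1 and Zfpm1 most.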

Other observations

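Ratios between the erythroid genes and factors that oppose or replace them were set per kb of exon within each library, chosen after the values were seen (5 ratios, two-sided exact permutation tests of the log2 ratios, adjusted over the 5). Spi1 (PU.1) is the myeloid factor that opposes Gata1. The ratio of Gata1 to Spi1 was 0.75, 3.32, 0.97 and 0.62 in DekTg replicates 1 to 4, against 1.09, 4.44, 1.95 and 0.96 in DekCon replicates 1 to 4 (exact p = 0.4, adjusted p = 0.667). Replicate 2 was the highest library of its group in each case, and DekTg replicate 2 also had the lowest Spi1 value (64.9 normalized reads). The ratio of Gata1 to Gata2 was 0.66, 1.2, 0.87 and 0.51 in DekTg replicates 1 to 4, against 0.80, 1.02, 0.95 and 0.77 in DekCon replicates 1 to 4 (exact p = 0.543, adjusted p = 0.679). DekCon replicate 2, highest in both factors, lay inside the DekTg range of their ratio. Tfrc stood below Tfr2 per kb in every library, at 0.41 to 0.60 of it in DekTg and 0.23 to 0.54 in DekCon (exact p = 0.171, adjusted p = 0.667). The ratios of Gata1 to Zfpm1 (exact p = 0.914) and of Klf1 to Klf3 (exact p = 0.286) did not separate the groups either.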
